A study of Homo sapiens with 4 samples.

Results

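The genes described here are the claudins CLDN3, CLDN4, CLDN6, CLDN7 and CLDN10, the cadherins CDH1, CDH2 and CDH3, and the junction genes EPCAM and OCLN, a set of 10 genes chosen by name from 60483 Ensembl gene identifiers in the count files. Messenger RNA was sequenced from H9 (WA09), an established line of human embryonic stem cells, after selection on the poly(A) tail. The libraries were 2 from H9 cells labelled SLC35F2 KO and 2 from H9 cells labelled control. SLC35F2 encodes a membrane carrier, and the comparison of KO with control asks how RNA levels differ when it is knocked out. The labels name no clone, guide, passage or separate culture, so p-values measure only the spread between these libraries, which may be technical.

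Human embryonic stem cells grow as flat epithelial colonies. Their cells are held together by adherens junctions, in which cadherins of neighbouring cells bind each other outside the membrane and catenins inside it. Nearer the free surface lie tight junctions, in which claudins form the strands that seal the gap between cells or let chosen ions through, and occludin lies beside them. EPCAM, a surface adhesion molecule of epithelia and stem cells, binds claudin-7. When stem cells leave the epithelial state, E-cadherin typically gives way to N-cadherin, a change driven by repressors such as the SNAI and ZEB proteins.

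The libraries held between 27824693 and 37978705 reads assigned to genes. SLC35F2 had 12.1 and 9.65 CPM in KO 1 and KO 2, against 41.1 and 27.1 CPM in control 1 and control 2. CPM, the normalised level, gives a gene's reads relative to the scaled total of its library. Each library thus stood on the side its label gives. The log2 fold change of SLC35F2, KO over control, was -1.65 ± 0.35 (SE). The main test, edgeR's quasi-likelihood test, did not call SLC35F2 (adjusted p = 0.58). Of the pluripotency markers, all 8 were present in every library, with a summed level of 6201 and 4870 CPM in KO against 5392 and 6027 CPM in control. LIN28A and PODXL carry most of this sum. NANOG had 46.2 and 19.1 CPM in KO against 61.2 and 64.7 CPM in control, and was not called by the main test. KO 2 was also the lowest library for PODXL, DPPA4, TDGF1, POU5F1 and SALL4, but not for LIN28A and SOX2. POU5F1 had 401 and 227 CPM in KO against 282 and 306 CPM in control. SOX2 had 327 and 427 CPM in KO against 365 and 314 CPM in control. Of 10 fibroblast and mesenchymal markers, 8 had enough reads to be tested, and their summed level was 759 CPM in KO 1 and 1636 CPM in KO 2, against 828 and 1253 CPM in control 1 and control 2. The summed level of the tested neural markers, mostly NES, was 582 and 959 CPM in KO against 529 and 830 CPM in control. DCX, a small part of that sum, had 4.18 and 3.42 CPM in KO against 6.49 and 9.71 CPM in control, and was not called by the main test. Of the 6 neural markers tested, 2 had both KO libraries below both controls (16.3% of all genes) and 1 had both above (15.8%). The tested trophoblast and amnion markers summed to 19.1 and 27.6 CPM in KO against 19.9 and 41.6 CPM in control, with control 2 highest. GATA2 had 0.109 and 0.146 CPM in KO against 0.504 and 8.58 CPM in control, and was called lower by DESeq2 and with the replicate block but not by the main test. Of the markers not tested, HAND1 had 79 reads in control 2 and at most 3 elsewhere, and CGA had 0 in all 4 libraries. The summed level of the 3 endoderm markers tested was 4.91 and 3.63 CPM in KO against 5.88 and 5.995 CPM in control.

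All 10 junction genes were expressed and passed the filter on low counts, and the RNA of none was called as changed in KO. In edgeR's quasi-likelihood test with Benjamini-Hochberg adjustment over 19027 genes and a threshold of 0.05, 0 of the 10 were called, where 5 genes in all (0.0263%) were, 0.00526% as higher and 0.021% as lower in KO. None of the 10 reached an unadjusted p under 0.05, as 4.06% of all genes did, and DESeq2 and limma-voom called 0 of them as well. The adjusted p of each was 0.997. Their log2 fold changes, KO over control, ran from -0.31 for CLDN10 to 0.51 for CLDN3, with a median of 0.03, the same as the median of all genes tested (0.03). For 7 of the 10 the 95% interval of the fold change lay within a 2-fold difference in either direction. A smaller share of all genes, 5745 of 19027, had such an interval. Every junction gene averaged at least 13.4 CPM, while only 11570 of all genes tested averaged 5 CPM or more. Junction genes were not compared with genes of like level, so the larger share is not read as a trait of theirs. These intervals, too, measure only the spread between these libraries. The intervals of CLDN3, CLDN4 and CLDN10 reached beyond a 2-fold difference, so for these genes the interval allows such a difference. SLC35F2 itself, at a log2 fold change of -1.65, was also not called by edgeR (adjusted p = 0.58). A missing call here thus does not show that a gene is unchanged.

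**Figure D1:**
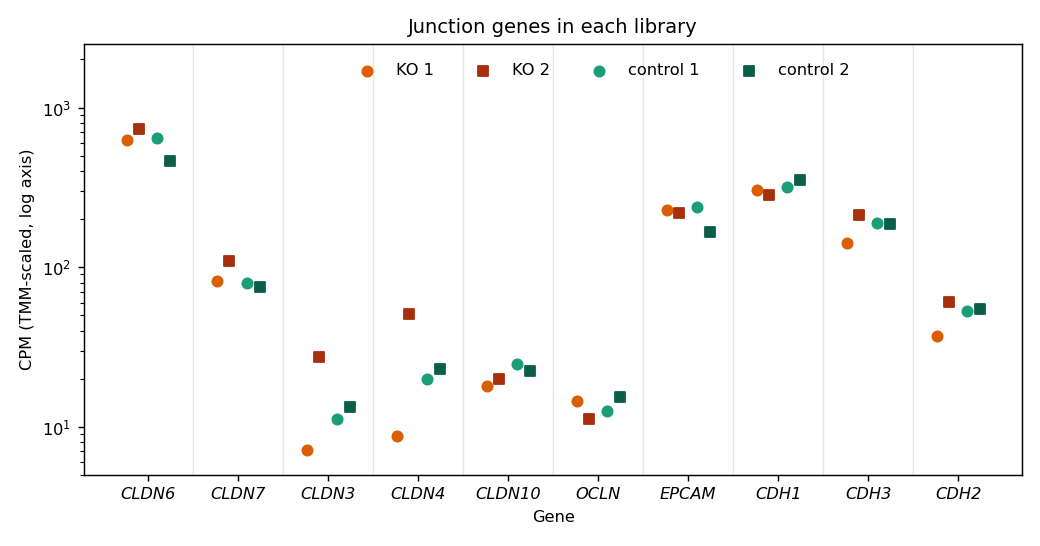
Normalised level of the 10 junction genes in each library, in CPM on a log axis, with KO 1 and KO 2 left of control 1 and control 2 for each gene. CLDN6 lies highest, at 460 to 737 CPM, and the KO libraries stand widest apart in CLDN3 and CLDN4.

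CLDN3 and CLDN4 are neighbours on chromosome 7, in the segment that is deleted in Williams-Beuren syndrome, and are the genes of the set whose KO libraries differed most from each other. CLDN3 (ENSG00000165215.6) lies at 73768997 to 73770270 on the minus strand of GRCh38, and CLDN4 (ENSG00000189143.9) at 73799542 to 73832693 on the plus strand. The genes face away from each other across 29271 bases. Their upstream sequence is shown because the levels of both move together across the libraries, as given below. The CLDN3 line holds the 250 bases before its RefSeq transcript start (chr7:73770271-73770520, minus strand, GRCh38.p14), a stretch with no annotated exon. The CLDN4 line holds the 30 bases (chr7:73830937-73830966, plus strand) around the only GC box in its own window of 250 bases, which other annotated CLDN4 transcripts include in an exon. Both are written 5′ to 3′ along the strand of the gene, and capitals mark the GC box GGGCGG, the site of SP factors, on either strand.
CLDN3: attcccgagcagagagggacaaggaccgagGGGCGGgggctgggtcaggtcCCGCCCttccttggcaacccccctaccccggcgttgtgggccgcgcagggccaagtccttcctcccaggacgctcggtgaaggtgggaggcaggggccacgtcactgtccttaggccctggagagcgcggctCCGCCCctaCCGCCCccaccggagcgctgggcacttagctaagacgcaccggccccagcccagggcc
CLDN4: ctccctctgcccCCGCCCctctgccagagc

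The CLDN3 window held 4 GC boxes and the CLDN4 window 1, and 42.6% of 35116 RefSeq promoter windows of this length hold at least 1. The motif CACCTG, the E-box that SNAI and ZEB proteins bind, was absent from both strands of both windows and is present in 17.5% of all windows. CDH1, CDH3 and EPCAM had no window here, so their promoters were not examined. The other 7 junction genes had 11 windows, of which 3 held the E-box. These belonged to CLDN7 and OCLN, and 1 window of CLDN7 held it 4 times. These matches describe letters in the windows and not sites in use.

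CLDN3 and CLDN4, which encode claudins that seal the tight junction and also serve as receptors of the enterotoxin of Clostridium perfringens, were low in KO 1 and high in KO 2. CLDN4 had 8.80 CPM in KO 1 and 51.1 CPM in KO 2, against 19.8 CPM in control 1 and 23.1 CPM in control 2. These values came from 242 and 1747 reads in KO and 746 and 821 reads in control. Both controls therefore lay between the KO libraries, which differed 5.77-fold from each other where the controls differed 1.17-fold. CLDN3 had 7.13 CPM in KO 1 and 27.4 CPM in KO 2, against 11.1 CPM in control 1 and 13.2 CPM in control 2, with a 3.82-fold difference between the KO libraries. Reads of CLDN3 per read of CLDN4 were 0.810 in KO 1 and 0.536 in KO 2, against 0.563 and 0.571 in control 1 and control 2, so this ratio was higher in KO 1 and close to the controls in KO 2. Among 11570 genes averaging 5 CPM or more, 2.62% differed more between the KO libraries than CLDN3 did and 1.09% more than CLDN4 did. This pair was singled out after its values were seen.

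**Figure D2:**
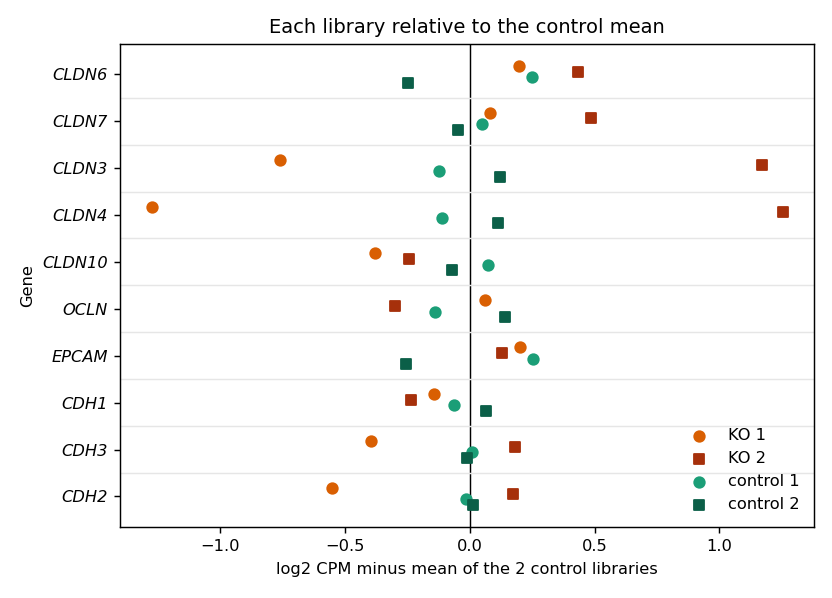
Log2 CPM of each junction gene in each library minus the mean of the 2 control libraries. KO 2 lies at 1.17 for CLDN3 and 1.26 for CLDN4 and KO 1 at -0.76 and -1.27, while all 4 libraries lie within 1 of zero for the other 8 genes.

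With both KO libraries, the log2 fold change was 0.51 ± 0.56 (SE) for CLDN3, with a 95% interval from -0.78 to 1.805, and 0.49 ± 0.68 for CLDN4, with an interval from -1.11 to 2.08. These means stand for neither KO library. Without KO 1 both genes were called higher in KO by edgeR, CLDN3 at a log2 fold change of 1.18 (adjusted p = 0.0457) and CLDN4 at 1.27 (adjusted p = 0.0138). That fit takes the spread of the single KO library to equal that of the controls, and it called 5.31% of all genes, 2.35% as higher. Without KO 2 the log2 fold changes were -0.77 and -1.28, and edgeR called neither gene (adjusted p = 0.906 for CLDN3 and 0.159 for CLDN4). The direction of these genes in KO thus depends on which KO library is taken. In all, 4 of the 10 junction genes (CLDN3, CLDN4, CDH2 and CDH3) had KO 1 lowest and KO 2 highest of the 4 libraries, as 12.7% of all genes tested did, a placing that was looked for after the values were seen. Of the 8 tested mesenchymal markers, 3 (VIM, COL1A1 and COL1A2) had it too, and the part of such cells in the result was not tested. VIM, the intermediate filament vimentin, had 82.9 CPM in KO 1 and 342 CPM in KO 2, against 106 and 146 CPM in control 1 and control 2. COL1A1, a chain of collagen I, had 46.8 CPM in KO 1 and 552 CPM in KO 2, against 128 and 300.4 CPM in control. Other markers on that list had another order. THY1 had 429 and 337 CPM in KO 1 and KO 2, against 296 and 376 CPM in control, and S100A4 had 14.4 and 18.02 CPM in KO against 25.5 and 31.4 CPM in control. FN1 and PDGFRB were highest in control 2, and the untested DCN and LUM had at most 2 and 4 reads in any library.

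The genes around this pair did not all share its pattern. Of 12 other genes tested within 250 kb, 10 averaged 5 CPM or more. Of these 10, METTL27 alone, a methyltransferase-like gene just beyond CLDN4, differed more than 2-fold between the KO libraries. METTL27 had 2.80 CPM in KO 1 and 11.9 CPM in KO 2, against 2.84 and 5.40 CPM in control, a 4.17-fold difference between the KO libraries. VPS37D, which encodes a subunit of the ESCRT-I sorting complex, had a lower mean of 3.52 CPM, with 1.93 CPM in KO 1 and 7.72 CPM in KO 2, against 2.28 and 2.17 CPM in control. ABHD11, on the other side of CLDN3, had 12.9 and 21.5 CPM in KO against 13.1 and 15.9 CPM in control. BUD23, a ribosomal RNA methyltransferase gene, had the KO libraries in the opposite order, with 70.8 CPM in KO 1 and 53.7 CPM in KO 2. Its controls had 79.8 and 63.7 CPM, so control 1 was the highest library. The high level in KO 2 was therefore shared by some genes of the segment and not by others.

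**Figure D3:**
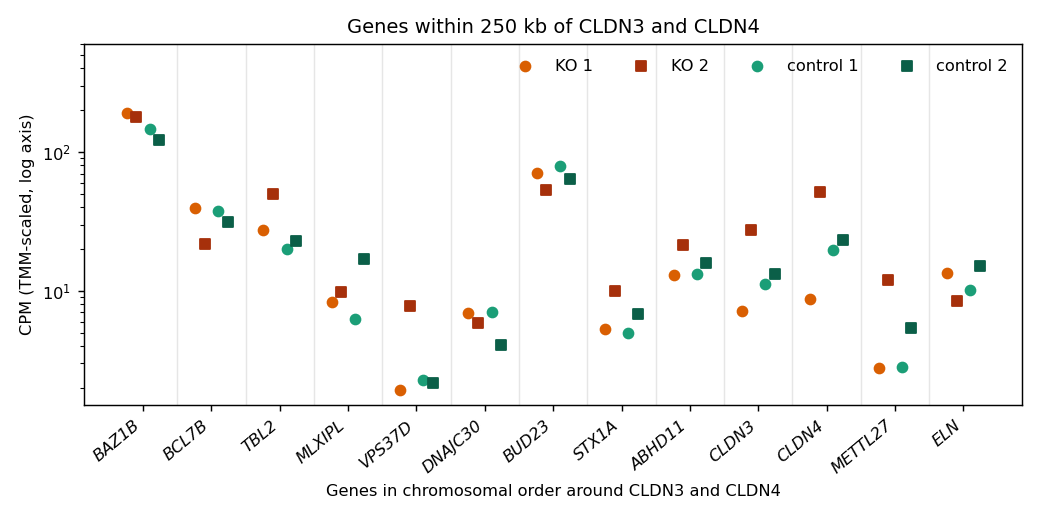
Normalised level in CPM, on a log axis, of the tested genes of at least 2 CPM within 250 kb of CLDN3 and CLDN4, in chromosomal order, with the KO libraries left of the controls. KO 2 lies above the other libraries in TBL2, VPS37D, STX1A, ABHD11, CLDN3, CLDN4 and METTL27 and below KO 1 in BAZ1B, BCL7B, DNAJC30, BUD23 and ELN.

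CLDN6 was the main claudin of these cells in every library. This gene (ENSG00000184697.6, chromosome 16, 3014712 to 3020071, minus strand) encodes a claudin of the early embryo and of pluripotent cells that is scarce in adult tissue. It had 626 CPM in KO 1 and 737 CPM in KO 2, against 648 CPM in control 1 and 460 CPM in control 2. Control 1 lay between the KO libraries and control 2 below them, so the groups overlapped. Its log2 fold change was 0.30 ± 0.27 (SE), with an interval from -0.32 to 0.92. On a scale per kilobase of annotated exon, CLDN6 made up 84.7% and 80.2% of the level of 15 tested claudins in KO 1 and KO 2, and 83.5% and 78.4% in control 1 and control 2. An exon of CLDN6 overlaps TNFRSF12A on the opposite strand, and whether counting used the strand is not given in the sources used here. TNFRSF12A had 828 and 1373 reads in KO 1 and KO 2 and 1730 and 3987 in control 1 and control 2, against 16334 to 25202 for CLDN6. Its count was thus highest in control 2, where CLDN6 was lowest. Reads that fall on both genes may be missing from both counts, so these counts do not give how many reads CLDN6 lost.

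CLDN7, the claudin that binds EPCAM, was the next most abundant claudin and the only junction gene with both KO libraries above both controls. CLDN7 (ENSG00000181885.17, chromosome 17, 7259903 to 7263983, minus strand) had 81.9 CPM in KO 1 and 108 CPM in KO 2, against 80.0 and 74.8 CPM in control 1 and control 2. KO 1 exceeded control 1 by less than the controls differed from each other. Its log2 fold change was 0.30 ± 0.27 (SE) with an interval from -0.32 to 0.92. Such a separation, 1 of 10 here, was seen in 15.8% of all genes tested. Its exons overlap those of ELP5 on the opposite strand and of AC003688.1 on its own strand, which had 0 reads in all 4 libraries, and reads that fall on both genes of such a pair may be missing from its count. On the scale per kilobase its share of the claudin level was 7.74% and 8.24% in KO against 7.20% and 8.90% in control.

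CLDN10 and CDH1 were the junction genes with both KO libraries below both controls, 2 of 10 where 16.3% of all genes tested were so. CLDN10 (ENSG00000134873.8, chromosome 13, 95433604 to 95579759, plus strand) encodes a claudin that forms ion-selective pores and comes in forms that differ in their first exon. It had 18.1 and 19.9 CPM in KO 1 and KO 2, against 24.8 and 22.4 CPM in control 1 and control 2. Its log2 fold change was -0.31 ± 0.31 (SE), with an interval from -1.02 to 0.39. The level of CLDN10 relative to CLDN6, both per kilobase, was 0.0149 and 0.0139 in KO against 0.0197 and 0.0251 in control. CLDN6, the gene divided by, had itself a log2 fold change of 0.30. Among the ratios computed, that of EPCAM to CDH1 also separated the groups, at 1.85 and 1.87 in KO against 1.81 and 1.17 in control. All others overlapped. Such a within-library ratio needs no scaling, and with 2 libraries a group no exact permutation test can give a two-sided p below 0.333. CLDN10 also has an exon that overlaps DZIP1 on the opposite strand.

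CDH1, or E-cadherin, the cadherin that holds stem cell colonies together, was the most abundant cadherin in all libraries. CDH1 (ENSG00000039068.17, chromosome 16, 68737225 to 68835548, plus strand) had 302 and 284 CPM in KO 1 and KO 2, against 320 and 350 CPM in control 1 and control 2. The groups did not overlap but lay close. The means were 293 ± 12.7 CPM in KO and 335 ± 21.1 CPM in control (SD, n = 2 each). The log2 fold change was -0.19 ± 0.25 (SE), with an interval from -0.75 to 0.37. Of the 129 tested genes of all lists, PARD6B and AFDN were most like CDH1 in their course over the 4 libraries, at root-mean-square distances of 0.074 and 0.079 in centred log2 CPM. PARD6B is a polarity protein and AFDN, or afadin, links nectins to actin. By the same measure CLDN5 (0.093) and VIM (0.14) were most like CLDN3, the junction gene with the largest fold change. CLDN5 had only 0.364 and 1.35 CPM in KO against 0.583 and 0.619 CPM in control, so its log2 values rest on few reads and on the prior count.

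CDH3 and CDH2 were lower in KO 1 than in the other libraries and highest in KO 2. CDH3 (ENSG00000062038.12, chromosome 16, 68636189 to 68722616, plus strand), P-cadherin, lies 14608 bases before CDH1 on the same strand. It had 142 CPM in KO 1 and 211 CPM in KO 2, against 188 and 185 CPM in control 1 and control 2. CDH2 (ENSG00000170558.7, chromosome 18, 27950966 to 28177446, minus strand), N-cadherin, the cadherin typical of neural and mesenchymal cells, had 36.8 CPM in KO 1 and 60.9 CPM in KO 2, against 53.5 and 54.5 CPM in control 1 and control 2. In both genes the controls lay close together and between the KO libraries. The log2 fold changes were -0.08 ± 0.28 for CDH3 and -0.14 ± 0.32 for CDH2 (SE). Without KO 1 both were above 0 (0.19 for each), and edgeR called neither with either KO library left out.

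The balance of E-cadherin to N-cadherin stayed on the side of E-cadherin in every library. The level of CDH1 relative to CDH2, both per kilobase of exon, was 6.58 in KO 1 and 3.74 in KO 2, against 4.80 in control 1 and 5.14 in control 2. KO 1 was thus above and KO 2 below both controls. Of the level of 15 tested classical cadherins on this scale, CDH1 made up 52.7% and 44.2% in KO 1 and KO 2 and 49.1% and 52.1% in control 1 and control 2. CDH3 followed at 24.5% and 32.5% in KO against 28.5% and 27.4% in control. CDH2 made up 8.01% and 11.8% in KO against 10.2% and 10.1% in control. CDH24, a cadherin outside the named set, stood near CDH2, at 10.4% and 7.16% in KO against 7.81% and 6.29% in control.

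EPCAM and OCLN overlapped between the groups. EPCAM (ENSG00000119888.9, chromosome 2, 47345158 to 47387601, plus strand) had 228 and 217 CPM in KO 1 and KO 2, against 237 CPM in control 1 and 166 CPM in control 2. Only control 2 stood apart, and the log2 fold change was 0.14 ± 0.28 (SE), with an interval from -0.49 to 0.77. Control 2 was also the lowest library for CLDN6. OCLN (ENSG00000197822.9, chromosome 5, 69492292 to 69558104, plus strand), occludin, had 14.4 and 11.3 CPM in KO 1 and KO 2, against 12.6 and 15.3 CPM in control 1 and control 2. Its log2 fold change was -0.12 ± 0.36, with an interval from -0.94 to 0.70. OCLN has a near-identical pseudogene copy on chromosome 5, so reads that match both may be missing from its counts.

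**Figure D4:**
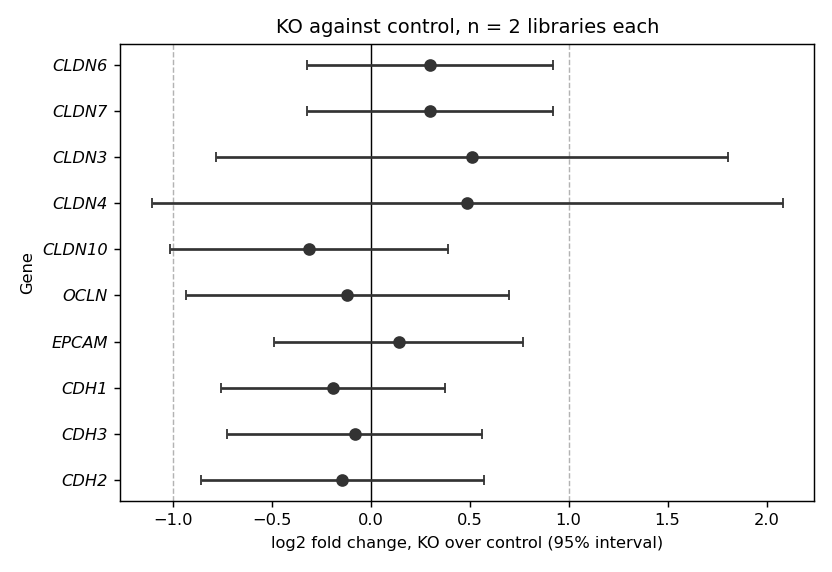
Log2 fold change of each junction gene, KO over control, with its 95% interval from edgeR's quasi-likelihood fit (n = 2 libraries each). Every interval spans zero, and those of CLDN3, CLDN4 and CLDN10 cross a dashed line that marks a 2-fold difference.

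Ordered by level per kilobase of annotated exon, averaged over the 4 libraries, CLDN6 came first at 355 CPM per kilobase, before EPCAM at 84.1, CDH1 at 50.8, CLDN7 at 34.6 and CDH3 at 29.1. CLDN3 (11.5), CDH2 (10.4), CLDN10 (6.30), CLDN4 (5.46) and OCLN (1.98) followed. The ranges over libraries of CLDN7 (30.01 to 43.5 CPM per kilobase) and CDH3 (22.7 to 33.9) overlapped, though CLDN7 was the higher in each of the 4 libraries. CLDN3 ran from 5.60 to 21.5 CPM per kilobase, a range that covers that of CDH2 (7.44 to 12.3) and overlaps those of CLDN10 (5.36 to 7.34) and CLDN4 (1.87 to 10.9). CDH2 lay above CLDN10 without overlap. With the median length of annotated coding transcripts in place of all exons the first 5 kept their order, and CLDN10 moved up to place 6.

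Of the 19 other claudins, 10 had enough reads to be tested, and edgeR called 0 of them (2 with both KO libraries above both controls and 1 below, against 15.8% and 16.3% of all genes, median log2 fold change -0.03). CLDN12, the most abundant, had 70.3 and 77.2 CPM in KO against 72.1 and 52.5 CPM in control. CLDN19, a claudin of kidney and retina, had 6.95 and 16.9 CPM in KO against 13.1 and 22.2 CPM in control. CLDN11, the claudin of myelin and of the testis, had a log2 fold change of 0.48 with 4.11 and 4.62 CPM in KO against 2.70 and 3.58 CPM in control, and CLDN23 one of -0.46. The other 9 had at most 6 reads in any library.

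All 22 genes of tight junction partners and polarity were tested, and 0 were called, with a median of 0.09. In both KO libraries 4 lay above and 4 below both controls, as 15.8% and 16.3% of all genes did. F11R, the junctional adhesion molecule JAM-A, had 165 and 219 CPM in KO against 162 and 190 CPM in control. LSR, a protein of corners where cells meet, had a log2 fold change of 0.03. CGNL1, paracingulin, had 109 and 76.0 CPM in KO against 114 and 129 CPM in control. TJP3, or ZO-3, picked here after its values were seen, had 7.20 CPM in KO 1 and 38.0 CPM in KO 2, against 12.1 and 22.2 CPM in control, the same placing of the KO libraries as in CLDN4.

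In adherens junctions, 12 of 13 catenins, nectins and afadin were tested and 0 were called, with 2 above and 2 below both controls (15.8% and 16.3% of all genes) and a median of 0.14. JUP, or plakoglobin, a catenin shared with desmosomes, had 160 and 211 CPM in KO against 128 and 90.7 CPM in control, with a log2 fold change of 0.77 ± 0.29 (SE) and an edgeR adjusted p of 0.997. CTNNB1, or beta-catenin, had 624 CPM in KO 1 and 382 CPM in KO 2, against 519 and 477 CPM in control. VCL, or vinculin, had 487 and 629 CPM in KO against 548 and 1066 CPM in control, with control 2 highest. CTNNA2 had a log2 fold change of -0.39. Of 15 other classical cadherins 12 were tested and 0 called (0 above and 1 below both controls, median -0.09). CDH24 had 36.2 and 27.9 CPM in KO against 30.9 and 25.6 CPM in control, and CDH4, retinal cadherin, had a log2 fold change of -0.13.

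Of 11 desmosomal genes 8 were tested and 0 called, with 3 below both controls in both KO libraries (16.3% of all genes) and a median of -0.18. PKP3, plakophilin-3, had 1.42 and 5.09 CPM in KO against 10.5 and 9.12 CPM in control, with a log2 fold change of -1.56 ± 0.57 (SE) and an edgeR adjusted p of 0.997. DSG2, desmoglein-2, had 289 and 274 CPM in KO against 322 and 241 CPM in control, and DSP, desmoplakin, had a log2 fold change of 0.17. Of the 7 genes of the EPCAM paralog, the protease matriptase and its partners, 6 were tested and 0 called, with 1 below both controls (16.3% of all genes) and a median of 0.12. SPINT2, a matriptase inhibitor, had 210 and 258 CPM in KO against 222 and 213 CPM in control, and the tetraspanin CD9 had 139 and 92.0 CPM in KO against 168 and 143 CPM in control. SPINT2, its paralog SPINT1 and the protease gene PRSS8 had KO 1 lowest and KO 2 highest, as CLDN3 and CLDN4 did (SPINT1 and PRSS8 picked after their values were seen).

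Repressors of epithelial genes were low, and 0 of 6 tested of 7 listed were called, with 1 above both controls (15.8% of all genes) and a median of -0.0026. ZEB2, which represses E-cadherin, stood at 2.95 CPM in KO 1 and 14.1 CPM in KO 2, against 2.31 and 2.17 CPM in control 1 and control 2. KO 2 stood far above the other libraries, and the log2 fold change was 1.95 ± 0.71 (SE) and an edgeR adjusted p of 0.997. ZEB1, picked after its values were seen, had 1.49 CPM in KO 1 and 6.03 CPM in KO 2, against 0.795 and 1.91 CPM in control. CDH1 had 302 CPM in KO 1 and 284 CPM in KO 2, against 320 and 350 CPM in control 1 and control 2. A link between CDH1 and these repressors was not tested. SNAI1 had 7.02 and 12.0 CPM in KO against 8.98 and 15.8 CPM in control, and SNAI3 had a log2 fold change of 0.21. All 12 epithelial regulators and keratins were tested and 0 called, with 3 above both controls in both KO libraries (15.8% of all genes) and a median of -0.04. KRT8 had 290 CPM in KO 1 and 521 CPM in KO 2, against 347 and 368 CPM in control, its partner KRT18 had a log2 fold change of -0.05, and KRT19 had 84.7 and 122 CPM in KO against 80.4 and 76.2 CPM in control.

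**Figure D5:**
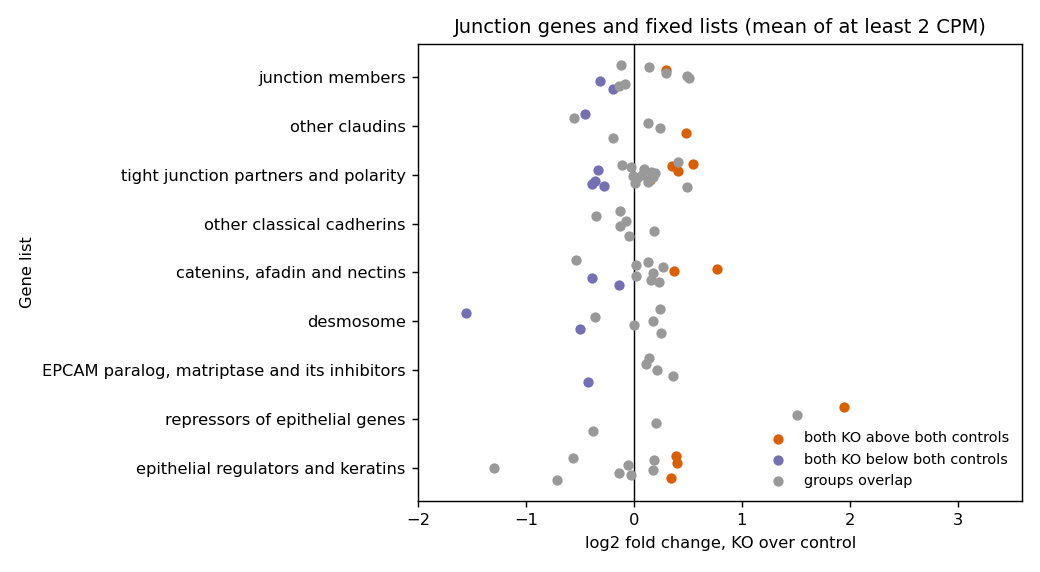
Log2 fold change, KO over control, of the junction genes and of the genes of the pathway lists on the axis that averaged 2 CPM or more (cell type markers are not plotted), coloured by whether both KO libraries lay above both controls, below them or overlapped with them. Most points lie within 1 of zero, and ZEB2 at 1.95 and PKP3 at -1.56 lie farthest out.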

How the data were processed

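Polyadenylated RNA of 4 libraries was counted per gene, and each library was grouped by its title. Per the labels' protocols, the library kit keeps the strand. Alignment with STAR 2.6.0a and counting with HTSeq 0.11.0 on GRCh38 are named in the submitters' processing notes, beside cutadapt 1.8.1 and FastQC 0.11.7. The annotation release was not given in the sources used here, nor was the strand setting. The values deposited by the authors are raw read counts per gene. Reads assigned to no single gene (14.4% to 20.3% of those counted) were left out. GENCODE 29 gave names, positions and exon lengths for 93.8% of identifiers, and RefSeq (GRCh38.p14) the promoter sequences.

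A filter on low counts (filterByExpr, minimum count 10) left 19027 genes. Libraries were scaled with TMM, and edgeR 4.0.16 in R 4.3.3 tested KO against control (quasi-likelihood F test, robust, two-sided, Benjamini-Hochberg over all genes). The SE was obtained by dividing the log2 fold change by the root of F, and 95% intervals by the t distribution. The common dispersion was 0.132. Log2 levels used a prior count of 2. DESeq2 1.42.0 and limma 3.58.1 served as alternatives. Counts of the KO libraries differed from each other by a chi-square of 124 per degree of freedom and those of the control libraries by 54.6, so no library was a copy. The test was also run on simulated counts, and the outcome is not reported here.

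The members and the lists were chosen with earlier results of these data known. Besides the 10 members and SLC35F2, each pathway list gave its called genes, its 2 most abundant and, among genes averaging 2 CPM or more with groups that did not overlap, its largest rise and largest fall. For CDH1 and the member with the largest fold change, the 2 list genes nearest in centred log2 CPM were named. A gene under this rule is not reported here. Other genes outside the marker lists, such as VPS37D, ABHD11 and BUD23, are to be read as picked after their values were seen. Among the markers this also holds for DPPA4, TDGF1, POU5F1, SALL4, SOX2, COL1A2, FN1, PDGFRB, HAND1, CGA, DCN and LUM.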

Additional observations from a re-analysis of the deposited data

How the results depend on the processing

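Under 14 alternative settings the number of genes called over the whole table was 0 with upper-quartile factors, library size only, limma-voom and a mean CPM of at least 1, where 801, 787, 681 and 523 genes had an unadjusted p under 0.05. It was 1 with quantile normalisation and with the legacy quasi-likelihood fit, 8 without a low-count filter, 60 with DESeq2 and 76 with the replicate number as a block, against 5 in the main test. Leaving out 1 library at a time gave 3 to 1096 calls, the most without KO 1 and the next most, 188, without KO 2. Junction genes were called in 1 setting, without KO 1 (CLDN3 and CLDN4), so the range over left-out libraries was 0 to 2. Of the other genes described, NANOG, TJP3, VIM, ZEB1 and ZEB2 were called without KO 1, PKP3 without KO 2 and COL1A1 in both cases.

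The sign of a junction gene's log2 fold change turned only when a library was left out. The values then ran from -0.77 to 1.18 for CLDN3, -1.28 to 1.27 for CLDN4, -0.55 to 0.19 for CDH2, -0.40 to 0.19 for CDH3, -0.0902 to 0.43 for EPCAM and -0.29 to 0.055 for OCLN. EPCAM turned without control 2, OCLN without control 2 and without KO 2. With all 4 libraries kept, the value of CLDN4 was 0.00037 with quantile normalisation, 0.026 with the replicate block and 0.057 with limma-voom, against 0.49 in the main test. That of CLDN3 was 0.25, 0.24 and 0.26 in the same settings, against 0.51. CLDN6, CLDN7, CLDN10 and CDH1 kept their sign in all 14 settings. Scaling by library size only put the median of all genes at -0.097 on the log2 scale, against 0.029 with TMM, and no junction gene turned.

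With the replicate number as a block 0 junction genes were called. Same-numbered libraries deviated together with a correlation of 0.33 over 19027 genes, but with 2 pairs and no label for a shared day this does not show pairing.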
